A study of Rattus norvegicus with 42 samples.

Results

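Whole blood of 6 rats with reperfused-MCAO was compared with whole blood of 6 rats with permanent-MCAO, none of which received tissue plasminogen activator (tPA). These 12 arrays were chosen by their sample titles from the 42 arrays of the series, which hold 6 rats in each of 7 groups. In reperfused-MCAO a suture closed the middle cerebral artery for 2 hours and was then withdrawn for 22 hours of reperfusion. In permanent-MCAO the artery stayed closed for 24 hours. All 12 rats were male Sprague-Dawley rats of 280 to 350 g that had isoflurane anesthesia and the intraluminal suture, and blood was drawn by cardiac puncture 24 hours after onset. The anesthesia group (6 rats, no MCAO) and the MCAO groups given 3.3 mg/kg tPA at 3 hours (6 rats with reperfused-MCAO + tPA, 6 with permanent-MCAO + tPA) were used only for further comparison. The levels of Gstt3 and a fit of all arrays also used 6 naive rats, with neither MCAO nor tPA, and 6 rats given the same tPA without MCAO. No group of rats with the operation but without occlusion is among the 7, and 1 time point was sampled. The 2 kinds of MCAO therefore differed in reperfusion and in the length of occlusion together, which cannot be told apart. Each rat was 1 array, so n = 6 per group throughout, and the labels do not say whether the rats were operated on or hybridized together.

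Occlusion of the middle cerebral artery is a standard model of ischemic stroke, and withdrawal of the suture lets blood return to the ischemic brain. Circulating leukocytes respond to stroke within hours: neutrophils and monocytes are mobilized from marrow and spleen, bind activated endothelium through integrins, and enter brain tissue. Integrins grip their ligands only when talin, a protein that ties them to the actin cytoskeleton, binds their inner side. Whole blood RNA also carries the messages of reticulocytes and platelets, so it reports cell numbers and cell state together. In such bulk samples fewer cells of a type and less RNA per cell cannot be told apart.

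Values are log2 expression levels of 31042 probe sets, in which an absent transcript lies near log2 2 and levels under log2 4 are dim. A difference of log2 1 is a 2-fold difference. Blood markers were at the levels of blood in both groups: Alas2, the heme synthesis enzyme of red cell precursors, averaged 14.6 in reperfused-MCAO and 14.5 in permanent-MCAO, and S100a8, a neutrophil alarmin, averaged 13.8 in reperfused-MCAO and 13.6 in permanent-MCAO. Myh6, Tnnt2 and Tnni3, which mark heart muscle through which the needle passed, stayed at log2 2.42 or less in all 12 rats. Of the brain list, 18 of 19 measured genes had a mean under log2 4. Array medians lay between 3.07 and 3.14, and the median correlation of an array with the other 11, over probe sets of mean log2 4 or more, ranged from 0.952 to 0.965. The level of 14 hybridization control probe sets was 11.9 ± 0.260 in reperfused-MCAO and 12.2 ± 0.200 in permanent-MCAO (mean log2 ± SD, exact permutation p = 0.117). Within permanent-MCAO, replicate 3 lay on the side of the reperfused rats for many of the lower genes below, and values without it are given where they matter.

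Few genes separated the 2 groups after correction for the number of probe sets. With limma on the 12 arrays, 220 of 31042 probe sets (0.709%) were called at p of 0.01 or less and a fold of at least 1.2, the thresholds of the study for comparisons of 12 rats. Of these, 155 (0.499% of all) were higher in reperfused-MCAO and 65 (0.209%) were lower, so 70.5% of calls were higher. At p of 0.01 or less alone 277 probe sets (0.892%) passed, against 310.42 that would pass with no difference at all. At this threshold the count is therefore no larger than a comparison without differences gives. At unadjusted p under 0.05 there were 1968 (6.34%), above the share of 0.05 that such a comparison gives. After Benjamini-Hochberg adjustment 2 probe sets (0.00644%) passed at 0.05, those of Gstt3 and Mapk7. Every other gene described here as called had a limma adjusted p of 0.419 or more, so its call rests on the unadjusted p and the fold. Called differences were small, with a median size of log2 0.49 and 21 of log2 1 or more. Groups that did not overlap were found for 32 probe sets higher in reperfused-MCAO (0.103%) and 102 lower (0.329%), and among the 13214 probe sets of mean log2 4 or more for 26 (0.197%) and 10 (0.0757%). Of the called probe sets, 27 higher (0.087% of all) and 10 lower (0.0322%) did not overlap. The called probe sets carried 154 named genes. With 1 probe set a gene, 130 of 14217 genes (0.914%) were called, 91 higher (0.64%) and 39 lower (0.274%). The sign of a difference depended on the level of the gene: 42.1% of all genes lay above 0, but 58.7% of the 7952 genes of mean log2 4 or more lay above 0 and 41.3% below it, and a list of bright genes is to be read against the second pair. The balance of calls depended on single rats: without permanent-MCAO replicate 3, 407 probe sets were called and 48.4% of them were higher, and without reperfused-MCAO replicate 3, 51.3% of 232 were higher. Quantile normalization of the 12 arrays gave 53.5% higher, and the hybridization control level as a covariate gave 50.5% higher of 222 called, of which only 83 were among the 220.

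**Figure D1:**
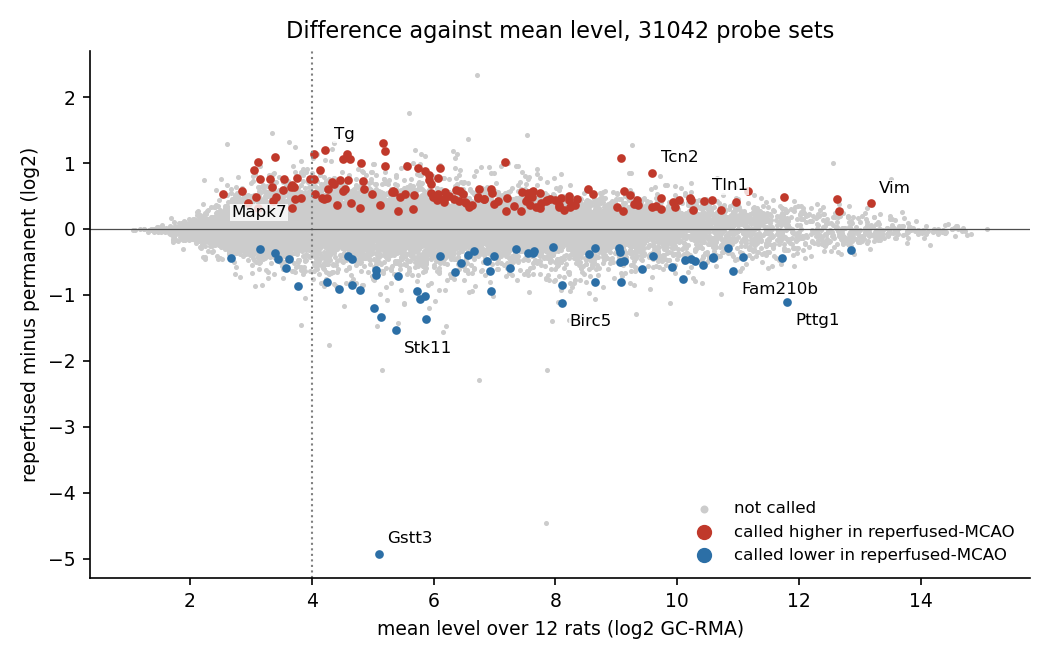
The reperfused minus permanent difference (log2, vertical axis) of each of 31042 probe sets is plotted against its mean level over the 12 rats (log2, horizontal axis), with called probe sets in red (155 higher) and blue (65 lower) and the dim level of log2 4 as a dotted line. Most called differences lie within log2 1 of 0, and Gstt3 lies alone at -4.93.

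The largest called difference belonged to Gstt3, glutathione S-transferase theta 3, an enzyme family that joins glutathione to reactive compounds. Its level was 2.48, 2.60, 2.61, 2.62, 2.70 and 2.85 in the reperfused-MCAO rats, against 6.95, 7.22, 7.31, 7.42, 7.69 and 8.83 in the permanent-MCAO rats. Every reperfused-MCAO rat was at the level of an absent transcript and every permanent-MCAO rat was well above it, with a difference of -4.93 (SE 0.26, limma adjusted p = 3.53e-05, exact permutation p = 0.00216, the smallest that 6 rats against 6 allow). The same 2 levels appeared inside every other group. Of the other 30 rats, 14 were under log2 4 and 16 above it: 4 of 6 with reperfused-MCAO + tPA, 3 of 6 with permanent-MCAO + tPA, 4 of 6 with tPA without MCAO, 1 of 6 with anesthesia and 2 of 6 naive rats were under it. Over all 42 rats no value lay between 3.72 and 5.26. Naive and anesthetized rats, without MCAO, thus held both levels. With tPA the difference was -0.97 (SE 1.39) and was not called, and when the spread of all 42 arrays entered the fit, the adjusted p of the difference was 0.235, or 0.60 with the 24 MCAO arrays.

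**Figure D2:**
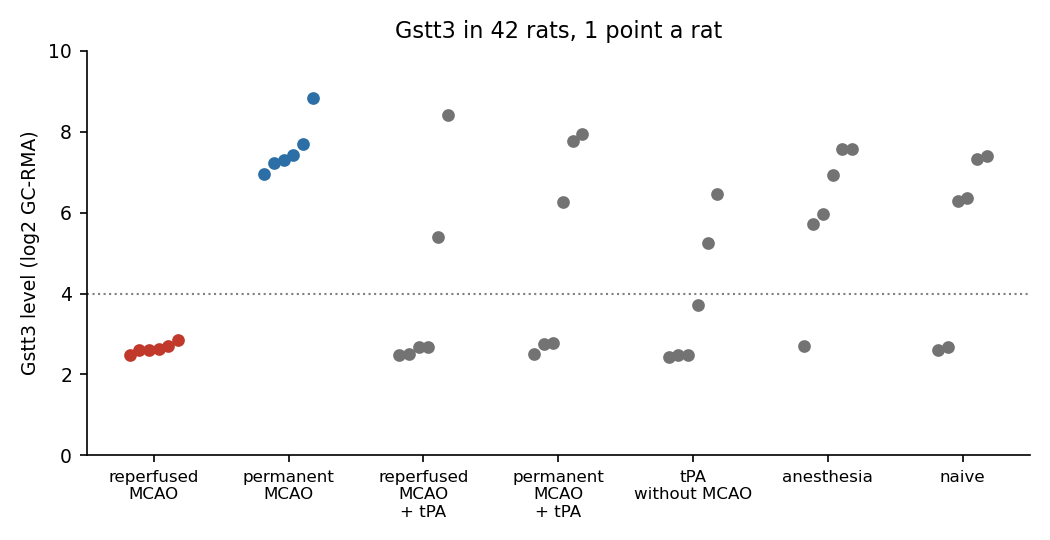
Each point is the Gstt3 level (log2, vertical axis) of 1 of 42 rats, with the 6 rats of each group sorted by value and the dim level of log2 4 dotted. All 6 reperfused-MCAO rats lie at 2.85 or less and all 6 permanent-MCAO rats at 6.95 or more, while every other group holds rats at both levels.

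Several probe sets differed by a fold of 3 or more without being called, and in these, rats of 1 group lay far apart. They were 7 in all, of which 4 had 1 gene symbol and 3 had none or several. Ctrb1, the pancreatic protease precursor chymotrypsinogen B1, was under log2 4 in 4 of 6 reperfused-MCAO rats and in 1 of 6 permanent-MCAO rats, and at 10.67 or more in the others (difference -4.47, exact permutation p = 0.214). Serpinb11, an intracellular serpin, was under log2 4 in 3 of 6 reperfused-MCAO and in 1 of 6 permanent-MCAO rats (difference -2.29, exact permutation p = 0.193). RT1-Bb, a beta chain of rat MHC class II, was under it on this probe set in 2 of 6 reperfused-MCAO and 4 of 6 permanent-MCAO rats (difference 2.34, exact permutation p = 0.323). A brighter RT1-Bb probe set averaged 10.13 in reperfused-MCAO (SD 0.71) and 9.32 in permanent-MCAO (SD 3.03). Its difference of 0.81 was not called. Clic2, an intracellular chloride channel protein, spread from 3.38 to 9.31 in reperfused-MCAO and from 7.15 to 10.62 in permanent-MCAO (difference -2.15, exact permutation p = 0.0779). These 4 genes were named after their values were seen.

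Mapk7 (ERK5), a mitogen-activated kinase of growth and stress signaling, was the other gene past adjustment, and it was named for that after its values were seen. Its level was 2.67 to 2.90 (median 2.83) in reperfused-MCAO rats, against 2.21 to 2.33 (median 2.29) in permanent-MCAO rats. The groups did not overlap, but all 12 values were dim, so the difference of 0.53 (SE 0.04, limma adjusted p = 0.000456) lay close to the floor of the array. The anesthesia group lay with permanent-MCAO, at 2.22 to 2.38.

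In the leukocyte adhesion list 3 of 28 measured genes were called higher in reperfused-MCAO and 0 lower. The shares called higher were 0.64% of all genes and 1.09% of genes of mean log2 4 or more. This list, like the others, was chosen with earlier results of these data known, so its count is not independent support. Tln1 (talin 1), which switches integrins on, was 10.39 to 10.83 (median 10.66) in reperfused-MCAO rats, against 10.11 to 10.34 (median 10.22) in permanent-MCAO rats. The groups did not overlap, and the difference was 0.43 (SE 0.07, exact permutation p = 0.00216), although the limma adjusted p was 0.419. Actn1 (alpha-actinin 1), which crosslinks actin filaments at adhesion sites, was 9.69 to 10.32 (median 9.91) in reperfused-MCAO, against 9.02 to 9.74 (median 9.62) in permanent-MCAO, a difference of 0.47 (SE 0.14, exact permutation p = 0.00433). In Actn1, 5 of 6 reperfused-MCAO rats exceeded every permanent-MCAO rat. A second, lower probe set of Actn1 differed by 0.82 and was called as well. Icam1, the endothelial and leukocyte ligand of the beta 2 integrins, was 6.61 to 7.11 (median 6.74) in reperfused-MCAO, against 6.12 to 6.66 (median 6.48) in permanent-MCAO (difference 0.36, SE 0.11, exact permutation p = 0.00649). These were the 3 called genes of the list, which holds 32 genes in all and in which 20 of the measured lay above 0 (median 0.19, against -0.02 over all genes and 0.04 over genes of mean log2 4 or more). Icam1 kept its call in only 8 of 23 alternatives, losing it without reperfused-MCAO replicate 1, 3 or 5 and without permanent-MCAO replicate 1, 4 or 5, while Tln1 lost its call only at a fold of 1.5. The first Actn1 probe set kept its call in 16 of 23, losing it without reperfused-MCAO replicate 1, 3, 5 or 6 or permanent-MCAO replicate 2. With the control level as a covariate 1 gene of the list was called, and its median was 0.17.

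The genes of this paragraph were picked from the called higher genes after their values were seen, so their direction adds nothing to the count of the adhesion list. Vim (vimentin, the intermediate filament of leukocytes) was 13.15 to 13.66 (median 13.31) in reperfused-MCAO rats, against 12.85 to 13.13 (median 12.98) in permanent-MCAO rats, a difference of 0.39 without overlap. Ptk2b (PYK2), an adhesion kinase that acts downstream of integrins and calcium, was 7.38 to 8.01 (median 7.79) in reperfused-MCAO, against 6.99 to 7.45 (median 7.10) in permanent-MCAO, a difference of 0.56. Flna (filamin A), which crosslinks actin and binds integrin tails, was 10.80 or more in 5 reperfused-MCAO rats and 10.27 in replicate 6, against 10.15 to 10.51 in permanent-MCAO (difference 0.44). Only that 1 reperfused-MCAO rat lay within the range of permanent-MCAO. Iqgap1, Lasp1, Sptan1 and Plec, all scaffolds of the actin cytoskeleton or its membrane skeleton, were higher by 0.41, 0.36, 0.38 and 0.42, and Skap2, an adaptor of leukocyte integrin signaling, by 0.44. Sirpa, the phagocyte receptor for CD47, was 3.94 to 4.82 (median 4.37) in reperfused-MCAO, against 3.49 to 3.77 (median 3.58) in permanent-MCAO, a difference of 0.75 without overlap on a dim probe set. A much brighter Sirpa probe set (mean 10.3) differed by 0.31 and was not called. Sorl1, a sorting receptor, had 3 called probe sets, with differences of 0.48, 0.60 and 0.61, and its other probe sets lay between 0.09 and 0.63. Calls of Tln1, Vim, Ptk2b, Flna, Iqgap1, Lasp1, Sirpa and Sorl1 survived the removal of any 1 rat. Those of Plec and Skap2 were lost in 8 of 12 such removals each, and that of Sptan1 without reperfused-MCAO replicate 2 or 3. Over all alternatives, Plec lost its call in 16, Skap2 in 13, Sptan1 in 7, Vim in 5, Lasp1 in 3 and Iqgap1 in 2. Tln1, Ptk2b and Flna lost theirs in 1 each, and Sirpa and Sorl1 in 0.

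**Figure D3:**
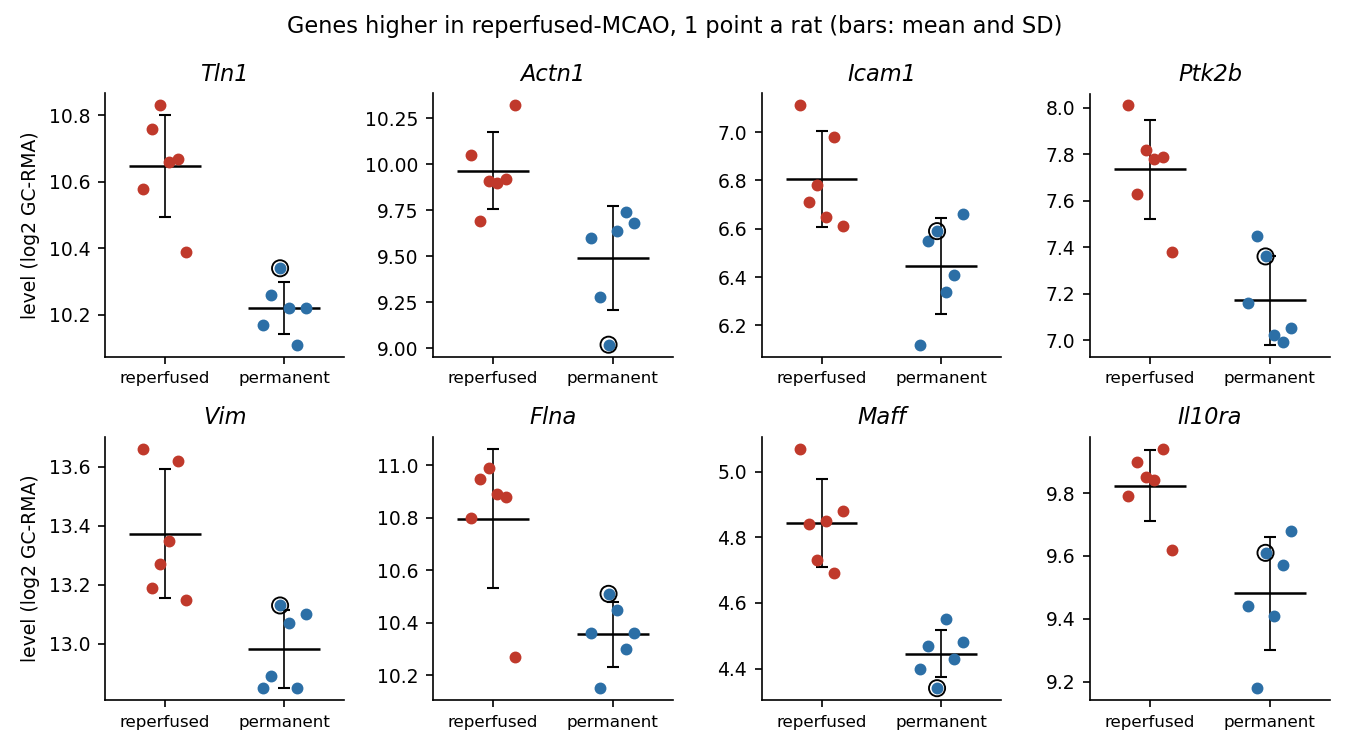
Levels (log2, vertical axes, a scale of its own in each panel) of 8 called genes are shown for the 6 reperfused-MCAO rats (red) and the 6 permanent-MCAO rats (blue), with mean and SD in black and permanent-MCAO replicate 3 ringed. The groups do not overlap in Tln1, Vim and Maff, and 1 reperfused-MCAO rat lies low in Flna.

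The 12 largest higher differences among called genes of mean log2 4 or more were found from dim to bright levels. Tg, the thyroid hormone precursor thyroglobulin, was 4.13 to 5.39 (median 4.81) in reperfused-MCAO, against 2.83 to 4.78 (median 3.46) in permanent-MCAO, a difference of 1.2 (SE 0.33). Tnfrsf21 (death receptor 6) was 4.52 to 5.80 (median 5.24) in reperfused-MCAO, against 3.27 to 4.52 (median 4.27) in permanent-MCAO, a difference of 1.07 in which the groups met at 4.52 without overlapping. Sync, an intermediate filament protein of muscle, differed by 1.13 without overlap on this probe set, yet by -0.14 on a much brighter one of mean 11.76. The set of 12 also held Bcr (1.13), Arhgap26 (0.93), Zfyve21 (1.01), a zinc-finger protein of focal adhesions, and Mtmr10 (0.87), a member of the myotubularin family. Further members were the photoreceptor cadherin Cdhr1 (0.92), the insulin receptor phosphatase Ptpn1 (0.77) and the junctional adhesion molecule Jam2 (0.74), whose other 4 probe sets were not called and lay between 0.22 and 0.72. Tcn2, transcobalamin 2, which carries vitamin B12 in plasma, was the brightest of them at 9.63 to 10.75 (median 9.88) in reperfused-MCAO, against 8.37 to 10.01 (median 9.15) in permanent-MCAO (difference 0.85, SE 0.27). Ptpn1 was called on a second probe set too (0.56). A brighter probe set of Arhgap26, of mean 7.07, differed by 0.32 and was not called. Mtmr10 kept its call in all 23 alternatives and Tnfrsf21 and Zfyve21 in 22, but Bcr, Arhgap26, Tcn2, the lower probe set of Actn1, Ptpn1 and Jam2 lost theirs in 7, 9, 9, 7, 8 and 8 of the 12 removals of 1 rat.

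Among the 12 largest lower differences were 2 genes of cell division and 2 of red cell precursors. Pttg1 (securin), which restrains the separation of sister chromatids until anaphase, was 10.30 to 11.86 (median 11.33) in reperfused-MCAO, against 11.79 to 12.86 (median 12.37) in permanent-MCAO. The difference was -1.11 (SE 0.29, exact permutation p = 0.00649). Birc5 (survivin), which guides chromosomes in mitosis and blocks caspases, was 6.98 to 8.19 (median 7.50) in reperfused-MCAO, against 7.60 to 9.33 (median 8.72) in permanent-MCAO, a difference of -1.13 (SE 0.31, exact permutation p = 0.00866). In both genes the lowest permanent-MCAO rat was replicate 3, at 11.79 and 7.60. They were the called genes of the cell division list, in which 0 of 47 measured genes were higher and 2 lower, 31 lay below 0 and the median was -0.11. Over all genes 0.274% were called lower and 57.9% lay below 0, and over genes of mean log2 4 or more 0.465% and 41.3%. Anapc11 (-0.33) and Anapc15 (-0.59), subunits of the complex that marks securin for destruction, were called lower too and were picked after their values were seen. Without permanent-MCAO replicate 3, 6 cell division genes were called lower, while lower calls over all probe sets rose from 65 to 210. With the hybridization control level as a covariate the direction of the list turned, with a median of 0.01, 24 genes above 0 and 23 below, and 1 called lower.

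Ank1 (ankyrin 1), which anchors the red cell membrane to its skeleton, was 4.74 to 5.79 (median 5.42) in reperfused-MCAO, against 5.56 to 6.95 (median 6.44) in permanent-MCAO, a difference of -1.01 (SE 0.24). Its brightest probe set differed by -0.43 and was not called. Slc11a2 (DMT1), the iron importer that red cell precursors need for heme, was 3.31 to 4.56 (median 4.04) in reperfused-MCAO, against 4.12 to 5.28 (median 5.00) in permanent-MCAO (difference -0.91, SE 0.23). Fam210b, a mitochondrial protein of red cell maturation, was 10.39 to 10.91 (median 10.53) in reperfused-MCAO, against 10.97 to 11.62 (median 11.23) in permanent-MCAO, a difference of -0.64 (SE 0.12, exact permutation p = 0.00216). It was the only called gene of the erythroid and reticulocyte list, where 0 of 36 measured genes were higher and 1 lower, and its groups did not overlap. In that list 31 of 36 genes lay below 0 with a median of -0.25, against 57.9% of all genes and 41.3% of genes of mean log2 4 or more below 0. Mitoferrin (Slc25a37), which imports iron into mitochondria, and the transcription factor Gata1 differed by -0.67 and -0.30 without being called. The erythroid markers Alas2, Hbb and Slc4a1 differed little, by 0.01, -0.09 and -0.09, and were not called. The mean level of the list ran from 9.84 to 10.74 (median 10.48) in reperfused-MCAO and from 9.91 to 10.96 (median 10.75) in permanent-MCAO, so it overlapped. The list moved with the hybridization controls: with their level as a covariate its median was 0.00 with 18 genes on each side of 0. Without permanent-MCAO replicate 3 its median was -0.36 with 6 called lower, while lower calls over all probe sets rose from 65 to 210. The part of the control level in these differences was not tested further.

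The remaining members of the 12 were genes of varied function. They included Stk11 (LKB1), the kinase that activates AMPK (-1.54), the GTP-binding protein Gtpbp1 (-1.33), Sfrp4, a secreted Wnt antagonist (-1.20), and Fbxo42, an F-box protein (-1.06). Dctpp1, which clears modified dCTP (-0.95), Snrnp25 of the minor spliceosome (-0.85) and Tmem256, a membrane protein (-0.80), completed them. Gtpbp1 and Sfrp4 were 4.35 and 3.96 in permanent-MCAO replicate 3 and 5.64 or more in the other 5 permanent-MCAO rats. Brighter probe sets of Gtpbp1 and Snrnp25 differed by 0.00 and -0.37 and were not called. Stk11, Gtpbp1, Sfrp4, Fbxo42 and Tmem256 lost their calls in 8, 6, 10, 8 and 5 of the 12 removals of 1 rat, whereas Dctpp1 and Snrnp25 kept theirs.

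Several components of mitochondria, picked after their values were seen, were called lower by small amounts. Mrps12, a protein of the small mitochondrial ribosomal subunit, was 8.45 to 8.60 (median 8.48) in reperfused-MCAO, against 8.66 to 8.94 (median 8.80) in permanent-MCAO, a difference of -0.30 (SE 0.06) without overlap. Ndufs6, a subunit of respiratory complex I, was 8.19 to 8.48 (median 8.39) in reperfused-MCAO, against 8.60 to 8.98 (median 8.70) in permanent-MCAO, a difference of -0.38 (SE 0.08) without overlap. Mrpl53 of the large mitochondrial ribosomal subunit (-0.41), Ndufa12 of complex I (-0.55) and Atp5pf of ATP synthase (-0.30) were lower as well, though Ndufa12 and Atp5pf lost their calls in 6 and 9 of the 12 removals of 1 rat. Of all genes 57.9% lay below 0, and of genes of mean log2 4 or more 41.3%. The oxidative phosphorylation list, which does not hold these genes of mitochondria, had 0 of 43 measured genes called in either direction. In it 32 genes lay below 0 and the median was -0.12. Without permanent-MCAO replicate 3, lower calls over all probe sets rose from 65 to 210, and 5 genes of the list were called lower. The median of the list was -0.06 once the control level entered the fit. Its gene of smallest p, Atp5f1b, the beta subunit of ATP synthase, differed by -0.21 (exact permutation p = 0.0195), below the fold needed for a call.

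**Figure D4:**
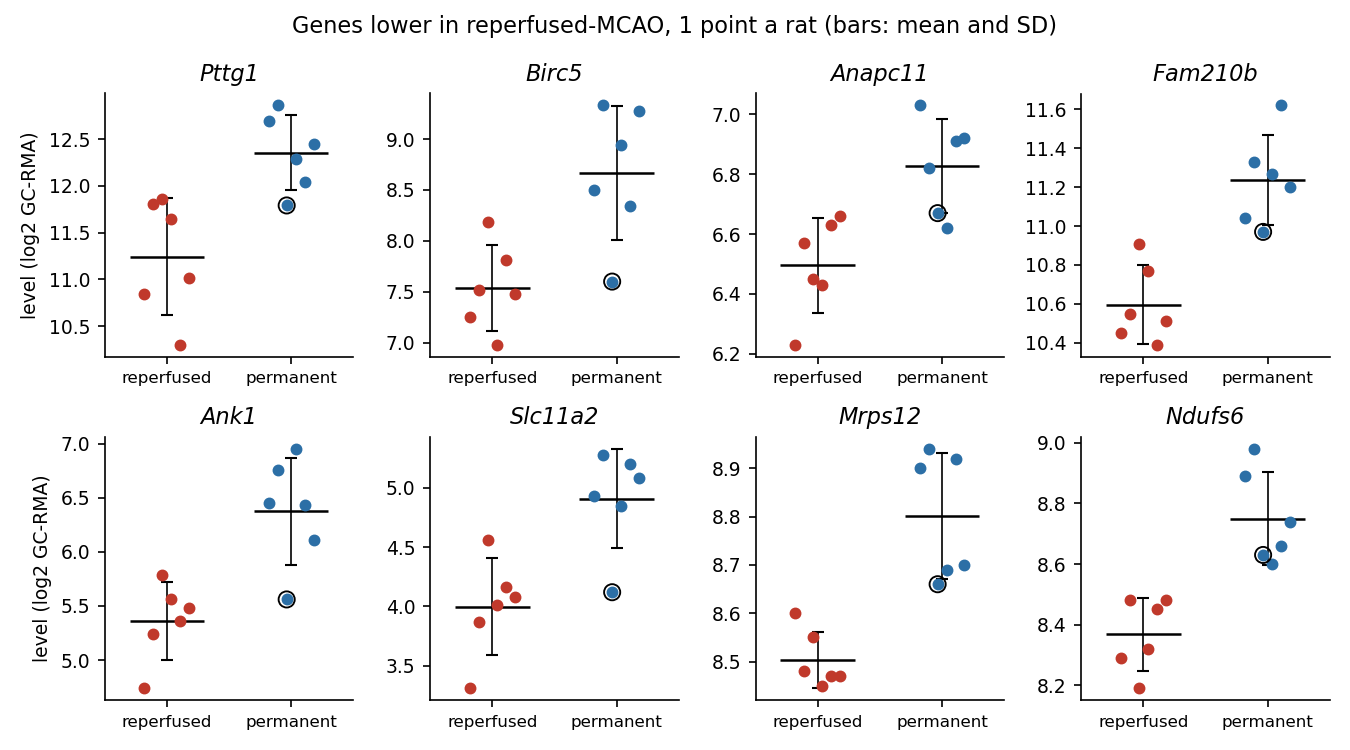
Levels (log2, vertical axes, a scale of its own in each panel) of 8 called genes are shown for the 6 reperfused-MCAO rats (red) and the 6 permanent-MCAO rats (blue), with mean and SD in black and permanent-MCAO replicate 3 ringed. The ringed rat is the lowest of permanent-MCAO in 6 of the 8 genes, and the groups do not overlap in Fam210b, Mrps12 and Ndufs6.

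Most genes of the neutrophil, monocyte and cytotoxic cell lists lay above 0, with 1 call, Gzmk, among the 3 lists. Over all genes 0.64% were called higher and 42.1% lay above 0, and over genes of mean log2 4 or more 1.09% and 58.7%. Of the neutrophil list 0 of 14 measured genes were called, 11 lay above 0 and the median difference was 0.37. That median fell to 0.15, with 9 of 14 above 0, without reperfused-MCAO replicate 1, and to 0.20 without permanent-MCAO replicate 2. Individual rats differed widely: the mean level of the list was 7.04 to 9.27 (median 8.03) in reperfused-MCAO and 7.15 to 8.42 (median 7.59) in permanent-MCAO. Cxcr2, the neutrophil chemokine receptor, was 7.04 to 9.46 in reperfused-MCAO and 6.92 to 8.24 in permanent-MCAO, a difference of 0.52 (limma adjusted p = 0.570), and Slpi, a protease inhibitor of neutrophils, differed by 0.45. In the monocyte list 0 of 22 genes were called, 20 lay above 0 and the median was 0.24, or 0.12 with the control level as a covariate. Fcgr1a, the high-affinity antibody receptor of monocytes, differed by 0.35 without being called. Fcgr2b, the inhibitory antibody receptor, which is in none of the 3 lists, was 9.17 to 9.85 (median 9.43) in reperfused-MCAO, against 8.55 to 9.34 (median 9.01) in permanent-MCAO, and was called higher by 0.52 (SE 0.16), though in only 9 of 23 alternatives. In the NK and cytotoxic cell list 1 of 20 was higher and 0 lower, with 16 above 0 and a median of 0.22. The called gene was Gzmk, a granzyme of cytotoxic granules, at 10.87 to 11.93 (median 11.48) in reperfused-MCAO, against 10.62 to 11.25 (median 10.82) in permanent-MCAO (difference 0.58, SE 0.17). Perforin (Prf1), which opens target membranes to granzymes, and Ccl5, a chemokine of cytotoxic cells, differed by 0.52 and 0.36 and narrowly missed the threshold (exact permutation p = 0.0173 for each). Gzmk lost its call without reperfused-MCAO replicate 1, 3 or 5 and without permanent-MCAO replicate 2, 3 or 5.

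The T cell, B cell, platelet and interferon response lists had no calls. T cell genes had a median of -0.08 (16 of 25 below 0), B cell genes 0.00 (8 of 15 below 0) and platelet genes 0.21 (17 of 22 above 0). The T cell median was -0.24, with 20 of 25 below 0 and 2 called lower, once the hybridization control level entered the fit. Without reperfused-MCAO replicate 3 it was 0.01. The platelet median was 0.08 without reperfused-MCAO replicate 3 or 6 or permanent-MCAO replicate 3, 0.38 without reperfused-MCAO replicate 1 and 0.40 once the control level entered the fit. The B cell median had no stable sign, at -0.19 with that covariate, 0.18 without reperfused-MCAO replicate 6 and -0.14 without permanent-MCAO replicate 5. Trat1, an adaptor of the T cell receptor, was 4.14 to 6.25 (median 4.78) in reperfused-MCAO and 5.32 to 6.47 (median 6.13) in permanent-MCAO, and Il2rb, a chain of the interleukin 2 receptor, differed the other way by 0.43. Both lay just past p of 0.01 and were not called. MHC class II genes had a median of 0.17 (11 of 12 above 0), which became -0.01 with the hybridization control level as a covariate. The interferon response list had a median of 0.07 (20 of 34 above 0), and the list of basophil, mast cell and eosinophil genes had -0.08.

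Signaling and metabolic lists held single called genes, where 0.64% of all genes were called higher and 0.274% lower. Among genes of mean log2 4 or more these shares were 1.09% and 0.465%. Maff, a small Maf transcription factor induced early by stress, was 4.69 to 5.07 (median 4.85) in reperfused-MCAO, against 4.34 to 4.55 (median 4.45) in permanent-MCAO, a difference of 0.40 (SE 0.06, exact permutation p = 0.00216) without overlap. It was the only called gene of 29 in the immediate early list (21 above 0, median 0.08). Il10ra, the ligand-binding chain of the interleukin 10 receptor, was 9.62 to 9.94 (median 9.85) in reperfused-MCAO, against 9.18 to 9.68 (median 9.51) in permanent-MCAO (difference 0.34, SE 0.08), and was the only call among 24 genes of inflammatory cytokines and the IL-1 family. Xdh, xanthine dehydrogenase, whose oxidase form makes superoxide, was 12.62 to 13.24 (median 12.80) in reperfused-MCAO, against 12.08 to 12.74 (median 12.39) in permanent-MCAO (difference 0.45, SE 0.13). It was the 1 call of 31 genes of NADPH oxidase and antioxidant defense. Eno1 (enolase 1) was the only called gene of 23 glycolysis genes, higher by 0.33, in a list with a median of 0.21. Icam1 was the 1 call of 26 in the NF-kB list and Birc5 the 1 call of 30 in the list of cell death and survival. Xdh and Eno1 kept their calls in 11 and 9 of 23 alternatives.

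No gene was called in the lists of chemokines and their receptors (median -0.02), Toll-like receptor and lipopolysaccharide sensing (0.27), matrix proteases and inhibitors (0.00), coagulation and plasminogen (-0.02), hypoxia response (0.00), cytosolic ribosomal proteins (-0.07), heat shock proteins and chaperones (-0.06), glucocorticoid-induced genes (0.23) or the circadian clock (0.07). The same held for heart and skeletal muscle (-0.02), endothelium (-0.04) and brain (-0.05), where most genes were dim. In the list of Toll-like receptor genes 18 of 21 lay above 0, and in the ribosomal protein list 31 of 36 lay below 0. Tlr4, the lipopolysaccharide receptor, differed by 0.50 and its partner Ly96 (MD-2) by 0.31, without calls.

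**Figure D5:**
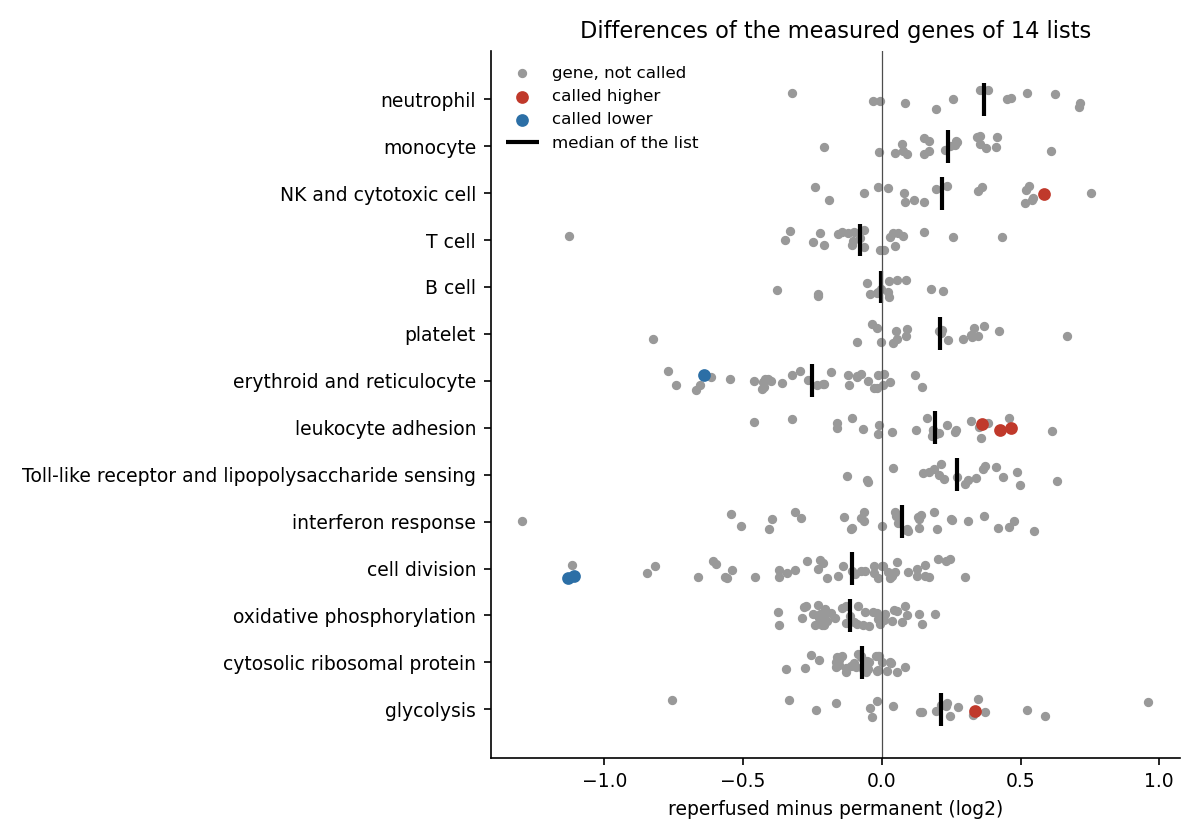
Each point is the reperfused minus permanent difference (log2, horizontal axis) of 1 measured gene of 14 lists, with called genes in red (higher) and blue (lower) and list medians as black bars. Neutrophil genes have a median of 0.37 and erythroid genes one of -0.25, and each list holds 3 called genes or fewer.

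Each kind of MCAO was also set against the same 6 rats of the anesthesia group, and since these comparisons share rats with each other and with the one above, their values are given only side by side. Against anesthesia 1864 probe sets (6%) were called in reperfused-MCAO and 862 (2.78%) in permanent-MCAO, of which 656 and 45 passed adjustment. Neutrophil genes had medians of 1.31 in reperfused-MCAO and 0.80 in permanent-MCAO against anesthesia, and leukocyte adhesion genes 0.41 and 0.17. Erythroid genes had -0.24 and -0.03, and platelet genes 0.56 and 0.36. Tln1 was 0.74 above anesthesia in reperfused-MCAO (limma adjusted p = 0.0218) and 0.31 above it in permanent-MCAO (adjusted p = 0.514), and Vim was 0.78 (adjusted p = 0.0211) and 0.38 (adjusted p = 0.312) above it. Sorl1 was 1.18 (adjusted p = 0.0140) and 0.57 (adjusted p = 0.333) above it. Pttg1 was 1.09 below anesthesia in reperfused-MCAO (difference -1.09, adjusted p = 0.128) and 0.02 from it in permanent-MCAO. Fam210b was -0.996 (adjusted p = 0.0319) and -0.35 (adjusted p = 0.832) from anesthesia, and Ndufs6 -0.65 (adjusted p = 0.0212) and -0.27 (adjusted p = 0.643). These genes were taken for their difference between the 2 kinds of MCAO, so nothing is read from which group lay farther from anesthesia. Other genes and lists lay otherwise: Sync was 0.39 and -0.74 from anesthesia, and MHC class II genes had medians of -0.03 and -0.21.

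The same contrast in rats given tPA, with 6 other rats in each group, called 103 probe sets (0.332%), of which 0 passed adjustment in limma (the smallest was adjusted p = 0.623, and 622 passed 0.05 before adjustment). None of the 220 probe sets called without tPA was called with it, and 127 of them (57.7%) had the same sign, close to 60.2% of all probe sets. Tln1 differed by -0.16 (SE 0.14) and Actn1 by -0.35 (SE 0.17) with tPA, and Pttg1 by 0.36 (SE 0.20), each opposite in sign to the difference without tPA. Ptk2b (0.04), Flna (-0.02) and Gzmk (-0.02) lay near 0 with tPA, while Icam1 (0.22), Il10ra (0.23) and Fcgr2b (0.50) lay above 0 without being called. Neutrophil genes had a median of 0.21 with tPA, erythroid genes 0.03, platelet genes -0.30 and interferon response genes 0.52, of which 8 of 34 were called. The test of the difference between the 2 contrasts called 92 probe sets (0.296%), 26 of them among the 220, and 0 passed adjustment in limma (the smallest was adjusted p = 0.978, and 782 passed 0.05 before adjustment). A change of the reperfused minus permanent difference with tPA was therefore not established for any single gene. Rats without and with tPA were not compared directly.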

How the data were processed

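Blood RNA was hybridized to Affymetrix whole-genome rat arrays, 1 array a rat. The authors summarized each probe set on the log2 scale with GC-RMA in Partek Genomics Suite. Scans were not used here, and arrays give no read depth, so precision is limited by 6 arrays per group. Of 31099 probe sets 57 controls were set aside. Of the rest 20826 had 1 gene symbol, 436 several and 9780 none. Lists used the probe set of highest mean over 42 arrays for each of 14217 genes.

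Reperfused minus permanent differences were fitted in limma 3.58.1 (R 4.3.3, statmod 1.5.0) on the 12 arrays, with Benjamini-Hochberg adjustment over all probe sets. Exact permutation tests are two-sided over every division of the 12 rats. The fit was tested on simulated data. Alternatives were the methods' analysis of variance, other samples in the fit, the replicate number as a block, array weights, an intensity trend with robust prior, centring, quantile normalization, removal of dim probe sets, a fold of 1.5, the control level as a covariate, and omission of each rat. The members and the 31 gene lists were chosen with earlier results of these data known. Genes named are the 12 largest called differences in each direction with 1 symbol and a mean of at least log2 4, the 3 of smallest p in each list, called genes that the study's text names, and those said to be picked after their values were seen. Same-numbered rats did not deviate together (r from -0.486 to 0.0124 over 6 pairs), so numbers were not treated as pairs. Gene names come from the probe annotation and the GRCr8 gene table. Figures were drawn with matplotlib 3.10.9.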

Additional observations from a re-analysis of the deposited data

Results flagged for a closer look

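The values of 132 named genes were looked at in each group of 6 rats, 264 sets of 6 values. In 19 of these sets (7.2%), 1 rat lay far from the other 5. Chance gives about 1 in 20 for independent sets. Here the same 12 rats enter for every gene, and many genes were chosen by these values. The 2 shares can therefore not be compared. There were 7 such sets in reperfused-MCAO and 12 in permanent-MCAO, and no cause was tested. Permanent-MCAO replicate 3 was the far rat for Gtpbp1 (4.35), Sfrp4 (3.96), Il2rb (8.57) and Nfkbib (9.55), where it was lowest, and for the B cell receptor Cr2 (8.38), where it was highest. Other permanent-MCAO rats lay far above the rest for Il13 (2.76), Cxcl12 (2.57), Pgk1 (11.24) and Cenpw (10.16), and far below for Cxcr1 (2.23), Ctrb1 (2.21) and Serpinb11 (2.47). Among reperfused-MCAO rats, 1 lay far above the rest for Cxcr1 (2.26), Fcgr1a (12.42), Plod2 (2.85) and Rpl22 (11.45), and 1 far below for Cd37 (9.25), Ier2 (7.08) and Flna (10.27). The values of Cxcr1, Il13, Cxcl12 and Plod2 were dim.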

How the results depend on the processing

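The 220 called probe sets became 140 with the 24 MCAO arrays in the fit, 146 without probe sets of mean under log2 4, 76 at a fold of 1.5, and 148 to 407 when 1 rat was left out (fewest without reperfused-MCAO replicate 1, most without permanent-MCAO replicate 3). The 155 higher became 101 with the methods' analysis of variance, 93 without dim probe sets, 47 at a fold of 1.5 and 100 to 225 without 1 rat. The 65 lower became 42 with all 42 arrays, 35 with 24 arrays, 43 with the replicate block, 99 after quantile normalization, 29 at a fold of 1.5, 110 with the control level as a covariate and 45 to 210 without 1 rat. The 2 past adjustment became 4 with 42 arrays, 1 with 24 arrays, 1 with the replicate block, 1 without dim probe sets and 2 to 4 without 1 rat. Without dim probe sets the contrast with tPA called 63 and the test between contrasts 49. The replicate block called 162 in all, and 0 of 6 rats correlated best with the rat of its own number. Of 3011 values of 132 named genes under the alternatives, 2626 kept their direction and their side of the threshold, 324 lost a call and 60 gained one. Only 52 of the 132 genes were called in the main fit, so all 324 losses fell on these 52. The other genes had no call to lose. Ifi30, a lysosomal reductase, turned from 0.16 to -0.0029 with the control level as a covariate. The causes were not tested. Arrays give no count of molecules, and differences under log2 4 lie near background.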
